A study of Mus musculus with 12 samples.

Results

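The connexin genes of glia were examined in sorted cells of the mouse spinal cord. Connexins are membrane proteins that assemble into hexameric half-channels, and half-channels of neighbouring cells dock to form a gap junction. The 7 genes were chosen by name: Gja1, Gjb6 and Gjb2, which are connexins of astrocytes, Gjb1 and Gjc3, which are connexins of oligodendrocytes, Gjc1, a connexin of vascular and developing cells, and Gjd2, the connexin of electrical synapses between neurons. All 7 were found, among 53465 genes counted in each library. In the names of the proteins they are connexin 43 (Gja1), 30 (Gjb6), 26 (Gjb2), 32 (Gjb1), 29 (Gjc3), 45 (Gjc1) and 36 (Gjd2).

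Astrocytes are joined to each other in a network through which potassium, metabolites and calcium signals spread, and its channels are built mainly from the Gja1 and Gjb6 proteins. Oligodendrocytes are joined to astrocytes by channels in which each side gives a different connexin, such as the Gjb1 protein docked with that of Gjb6. The Gjc3 protein lies in the innermost membrane of myelin next to the axon and is not known for forming junctions between cells.

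The mice were C57BL/6 animals at postnatal day 7 that all carried both reporters, written Aldh1L1-GFP and Olig2-tdTomato. Aldh1l1 encodes a folate enzyme used to mark astrocytes, and Olig2 a factor that marks cells of the oligodendrocyte lineage and ventral progenitors. Papain-dissociated cells of the brachial and thoracic cord were sorted by their fluorescence, and the labels name the resulting fractions eGFP, tdTomato and eGFP/tdTomato. Total RNA of each was sequenced. Each fraction had 4 libraries, named as biological replicates 1, 2, 3 and 5, and every list of 4 values below follows that order. The labels give neither the gates of the sort nor how many animals went into a library, so a p-value here measures the spread between these libraries. No treatment was given, and no group lacks the reporters.

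Reads counted in genes, in units of 1e6, were 12.6 to 36.5 per library. The library eGFP replicate 1 had the fewest, and 57.1% of its reads lay outside annotated genes (21.2 to 42.5% in the other 11), so comparisons with the eGFP fraction are also given without it. Of 12 astrocyte markers, summed levels were 31230 to 46384 CPM (counts per 1e6 of the scaled library size) in the eGFP libraries, 41083 to 48639 in the eGFP/tdTomato libraries and 799 to 1067 in the tdTomato libraries. Of 12 markers of myelinating oligodendrocytes, the sums were 463 to 1357, 1659 to 3362 and 113360 to 167810 CPM in the same order. The markers therefore place the connexins against an astrocyte-rich pair of fractions and a fraction rich in oligodendrocytes. Microglia and macrophage markers summed to 313 ± 365 CPM (SD, n = 4) in the eGFP fraction and to 29.5 and 30.3 CPM in the eGFP/tdTomato and tdTomato fractions. Ependyma markers summed to 263, 16.2 and 2.44 CPM and fibroblast and meninges markers to 1242, 441 and 220 CPM in the order eGFP, eGFP/tdTomato, tdTomato. Of the last list, Col1a2 held 407 CPM in eGFP/tdTomato and Pdgfra, which oligodendrocyte progenitors share, 207 CPM in tdTomato, and the other 6 genes summed to 754, 26.2 and 8.57 CPM.

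Upstream sequences of 4 connexin genes are given because the genes separate by fraction in pairs. Gjb1 and Gjc3 were high in the tdTomato fraction. Gjb6 and Gjb2 are neighbours on chromosome 14 and were higher in both fractions with GFP than in tdTomato. Each is a RefSeq window on GRCm38.p6 from 250 bases before to 50 bases after a transcript start, printed 5′ to 3′ on the strand of the gene. The windows are Gjb1 (window 1 of 4, chrX:101376126-101376425, plus strand), Gjb1 (window 4 of 4, chrX:101383482-101383781, plus strand), Gjc3 (chr5:137963049-137963348, minus strand), Gjb6 (chr14:57133562-57133861, minus strand) and Gjb2 (chr14:57104653-57104952, minus strand). Capitals mark the short motifs ACAAAG and AACAAT, of the kind read by Sox factors such as the oligodendrocyte factor Sox10, searched on both strands; where a motif lies on the other strand its reverse complement is in capitals.
Gjb1 window 1: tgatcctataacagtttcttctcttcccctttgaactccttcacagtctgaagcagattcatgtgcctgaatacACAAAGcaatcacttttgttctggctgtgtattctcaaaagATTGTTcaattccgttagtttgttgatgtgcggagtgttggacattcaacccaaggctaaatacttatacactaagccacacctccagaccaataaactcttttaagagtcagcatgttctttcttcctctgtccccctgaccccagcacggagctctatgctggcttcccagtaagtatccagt
Gjb1 window 4: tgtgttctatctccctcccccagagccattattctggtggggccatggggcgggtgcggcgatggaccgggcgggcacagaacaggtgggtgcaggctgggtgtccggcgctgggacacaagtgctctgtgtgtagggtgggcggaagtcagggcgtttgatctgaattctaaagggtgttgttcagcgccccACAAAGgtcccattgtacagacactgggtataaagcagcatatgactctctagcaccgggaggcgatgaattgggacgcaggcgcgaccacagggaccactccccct
Gjc3: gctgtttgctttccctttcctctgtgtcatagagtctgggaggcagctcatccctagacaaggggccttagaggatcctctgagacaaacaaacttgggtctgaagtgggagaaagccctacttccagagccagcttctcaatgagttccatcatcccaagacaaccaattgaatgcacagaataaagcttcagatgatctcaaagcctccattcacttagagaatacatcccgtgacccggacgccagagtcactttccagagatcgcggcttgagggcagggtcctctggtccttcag
Gjb6: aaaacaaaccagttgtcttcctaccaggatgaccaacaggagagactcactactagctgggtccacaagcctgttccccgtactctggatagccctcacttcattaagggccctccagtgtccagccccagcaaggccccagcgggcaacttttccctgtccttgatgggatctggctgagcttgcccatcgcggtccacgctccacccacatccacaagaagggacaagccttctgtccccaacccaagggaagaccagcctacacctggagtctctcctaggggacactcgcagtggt
Gjb2: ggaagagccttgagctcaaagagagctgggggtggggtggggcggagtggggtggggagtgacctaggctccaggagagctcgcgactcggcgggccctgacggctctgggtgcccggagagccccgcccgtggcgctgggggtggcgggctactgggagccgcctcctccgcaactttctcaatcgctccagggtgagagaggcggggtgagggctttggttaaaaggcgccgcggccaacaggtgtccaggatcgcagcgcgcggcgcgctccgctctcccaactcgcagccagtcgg

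In window 1 of Gjb1 an ACAAAG starts at position −176 from the transcript start, and an AACAAT on the minus strand starts at −135. In window 4 an ACAAAG starts at −57. None of these letters stood in windows 2 and 3 of Gjb1 or in the windows of Gjc3, Gjb6, Gjb2, Gja1 and Gjd2. Over all 32851 windows of this length, 18.7% held ACAAAG, 10.7% held AACAAT and 27.0% held either, so a match is common. A match describes the letters and does not show that a factor binds. The neighbours Gjb6 and Gjb2 differ in base composition: the window of Gjb2 is 70% G or C with 27 CpG pairs, that of Gjb6 57.3% with 6, against medians of 52.7% and 7 over all windows.

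Gja1 was by far the most abundant of the 7 genes in both fractions with GFP. Gja1 (ENSMUSG00000050953, chromosome 10, 56377330 to 56402513, GRCm38, plus strand) was at 2906, 4586, 4533 and 4450 CPM in the eGFP libraries and at 6882, 5847, 6079 and 5233 CPM in the eGFP/tdTomato libraries. In the tdTomato libraries it was at 11.3, 6.87, 9.24 and 7.32 CPM. Every library with GFP was far above every tdTomato library, and the eGFP/tdTomato libraries all lay above the eGFP libraries. Against the tdTomato fraction the log2 fold change was 9.44 ± 0.30 (SE) for eGFP/tdTomato and 8.89 ± 0.29 for eGFP (edgeR quasi-likelihood test, adjusted p = 2.88e-11 and 3.60e-11). Between the fractions with GFP, Gja1 did not pass (0.55 ± 0.21, adjusted p = 0.299), although their libraries did not overlap. Without eGFP replicate 1, the lowest of the 8 libraries with GFP, that difference was 0.35 (adjusted p = 0.593). In bulk RNA, fewer cells of a type and less RNA of a gene per cell cannot be told apart, here and in all comparisons that follow.

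**Figure D1:**
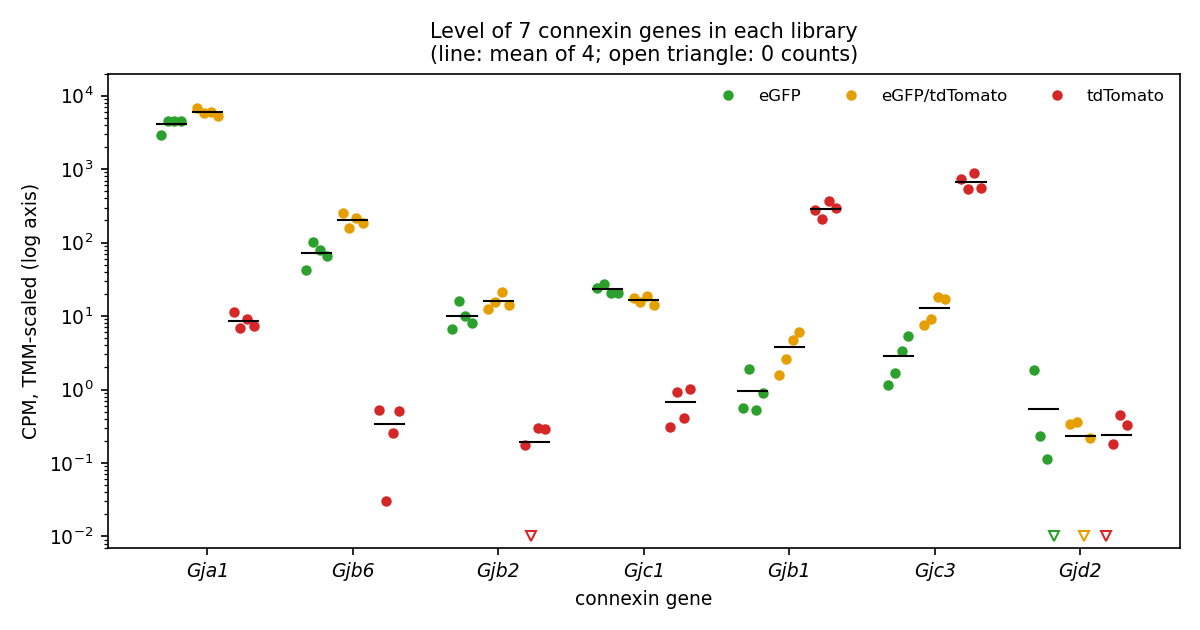
Level of each connexin in every library, in CPM on a log axis, by sorted fraction; points are libraries, lines are means of 4 libraries and open triangles at the foot mark libraries with 0 counts. Gja1, Gjb6, Gjb2 and Gjc1 sit higher in both fractions with GFP than in tdTomato. Gjb1 and Gjc3 sit high in the tdTomato fraction, and Gjd2 is near 0 throughout.

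Gjb6, the second connexin of mature astrocyte networks, was higher in cells with both reporters than in either other fraction. Gjb6 (ENSMUSG00000040055, chromosome 14, 57123303 to 57133611, minus strand) was at 42.0, 103, 80.4 and 65.4 CPM in the eGFP libraries and at 249, 160, 216 and 185 CPM in the eGFP/tdTomato libraries. The tdTomato libraries held 12, 1, 7 and 14 counts of it, which is 0.030 to 0.533 CPM. The 3 fractions did not overlap in any library. The eGFP/tdTomato level was 2.78-fold above the eGFP level (log2 fold change 1.48 ± 0.34, SE, edgeR adjusted p = 0.0308). That call held in 17 of 25 alternative analyses and in none of those that left out all 3 libraries numbered 1, 3 or 5 (adjusted p = 0.196, 0.0938 and 0.242). Among single libraries left out it was lost for 5 of 12: eGFP replicates 1 (log2 fold change 1.23, adjusted p = 0.066) and 5 (0.187), and eGFP/tdTomato replicates 1, 3 and 5 (0.102, 0.117 and 0.0748). Of the 12 astrocyte markers, 2 were called higher in eGFP/tdTomato than in eGFP, where 0.814% of all genes tested were called higher. The 12 summed to 43683 ± 3463 and 38537 ± 6235 CPM in these fractions, and their part in the result was not tested. Against the tdTomato fraction Gjb6 was higher by 9.29 ± 0.51 (eGFP/tdTomato) and 7.82 ± 0.49 (eGFP) on the log2 scale.

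Gjb2, a connexin that astrocytes share with the meninges, lay at a low level in the same fractions. Gjb2 (ENSMUSG00000046352, chromosome 14, 57098600 to 57104702, minus strand) stands 18600 bases from Gjb6, with the gene model Gm4491 between them. Its levels were 6.61, 15.9, 9.91 and 8.09 CPM in the eGFP libraries and 12.6, 15.3, 21.4 and 14.04 CPM in the eGFP/tdTomato libraries, which overlapped. In tdTomato it had 4, 0, 8 and 8 counts, and the 0 in replicate 2 allows up to 0.090 CPM (3 counts). It was 82.9-fold higher in eGFP/tdTomato and 53.0-fold higher in eGFP than in tdTomato (log2 fold changes 6.37 ± 0.56 and 5.73 ± 0.55, adjusted p = 2.73e-07 in the first), and did not pass between the fractions with GFP (0.64 ± 0.41, adjusted p = 0.768). Of the fibroblast and meninges markers, 5 of 7 tested were called lower in eGFP/tdTomato than in eGFP, where 1.67% of all genes tested were called lower. Without Col1a2 and Pdgfra the markers summed to 205 to 1504 CPM in the eGFP libraries and 20.02 to 33.1 CPM in the eGFP/tdTomato libraries. Their part in the level of Gjb2 was not tested.

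Gjc1 was the member with the opposite lean between the fractions with GFP. Its protein is known from smooth muscle, pericytes and the heart. Gjc1 (ENSMUSG00000034520, chromosome 11, 102799579 to 102819700, minus strand) was at 24.0, 27.6, 20.8 and 20.8 CPM in the eGFP libraries, 17.4, 15.7, 18.9 and 13.9 CPM in the eGFP/tdTomato libraries and 0.311, 0.930, 0.408 and 1.03 CPM in the tdTomato libraries. All eGFP libraries lay above all eGFP/tdTomato libraries, but the difference did not pass (−0.50 ± 0.27, adjusted p = 0.643). Both fractions were above tdTomato, by 4.59 ± 0.33 (24.0-fold) and 5.08 ± 0.33 (33.9-fold). The 8 mural markers summed to 58.2, 45.0 and 66.6 CPM in eGFP, eGFP/tdTomato and tdTomato, and 61.6 CPM of the last value came from Cspg4, a proteoglycan that oligodendrocyte progenitors share with pericytes. The other 7 summed to 51.2, 32.4 and 5.01 CPM, in the same order of fractions as Gjc1, and their part in its level was not tested.

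The oligodendrocyte connexins were highest in the fraction where the astrocyte connexins were lowest. Gjb1 (ENSMUSG00000047797, chromosome X, 101376378 to 101385629, plus strand), whose protein meets that of astrocytes at the oligodendrocyte surface, was at 275, 211, 373 and 300 CPM in the tdTomato libraries. It was at 1.56, 2.59, 4.77 and 6.13 CPM in eGFP/tdTomato and at 0.556, 1.89, 0.526 and 0.903 CPM in eGFP (10, 41, 14 and 24 counts). The tdTomato libraries stood far above all others, while those of eGFP and eGFP/tdTomato overlapped. Gjb1 was 77.0-fold lower in eGFP/tdTomato than in tdTomato (−6.27 ± 0.47, adjusted p = 4.70e-08) and 299-fold lower in eGFP (−8.22 ± 0.52).

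Gjc3 (ENSMUSG00000056966, chromosome 5, 137953461 to 137963098, minus strand) was at 729, 537, 874 and 552 CPM in the tdTomato libraries. It was at 7.48, 9.23, 18.2 and 17.3 CPM in eGFP/tdTomato and at 1.17, 1.70, 3.34 and 5.31 CPM in eGFP. The 3 fractions did not overlap. Gjc3 was 51.6-fold lower in eGFP/tdTomato than in tdTomato (−5.69 ± 0.46, adjusted p = 1.04e-07) and 230-fold lower in eGFP (−7.84 ± 0.51).

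Between the fractions with GFP, both oligodendrocyte connexins were higher where tdTomato was present. Gjc3 was 4.45-fold higher in eGFP/tdTomato than in eGFP (2.15 ± 0.41, adjusted p = 0.00766), and this call held in 24 of 25 alternatives, among them the one without eGFP replicate 1 (1.85, adjusted p = 0.0121). Gjb1 was 3.88-fold higher (1.96 ± 0.44, adjusted p = 0.0269), a call that held in 16 of 25. It was lost with limma-voom (adjusted p = 0.194), with only these fractions fitted (0.176), and with single libraries left out: eGFP replicates 1 (1.72 on the log2 scale, adjusted p = 0.0679), 3 (0.0503) and 5 (0.113), and eGFP/tdTomato replicates 3 (0.0864) and 5 (0.108). Leaving out all 3 libraries numbered 3 or 5 lost it too (0.128 and 0.350), and leaving out those numbered 2 lost the Gjc3 call (0.0708). Of 12 markers of myelinating oligodendrocytes, 7 were called higher in eGFP/tdTomato than in eGFP, where 0.814% of all genes tested were called higher. Their summed level was 1659, 1887, 3362 and 3034 CPM against 463, 634, 1357 and 1006 CPM. Of 8 markers of differentiating oligodendrocytes, 4 were called higher and 1 lower. Of 8 markers of oligodendrocyte progenitors, 2 were called higher and 0 lower. The part of these markers in the result was not tested.

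Set against the tdTomato level, both oligodendrocyte connexins lay within the range of 12 markers of myelinating oligodendrocytes, and Gjc3 lay above their median in both fractions with GFP. In eGFP/tdTomato, Gjb1 was at 1.30% and Gjc3 at 1.94% of the tdTomato mean, and the 12 myelin markers were at 1.09 to 84.2% with a median of 1.28%. In eGFP, Gjb1 was at 0.334% and Gjc3 at 0.428%, and the myelin markers at 0.133 to 61.7% with a median of 0.392%. The upper ends of both ranges are Aspa, an enzyme that splits N-acetylaspartate.

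**Figure D2:**
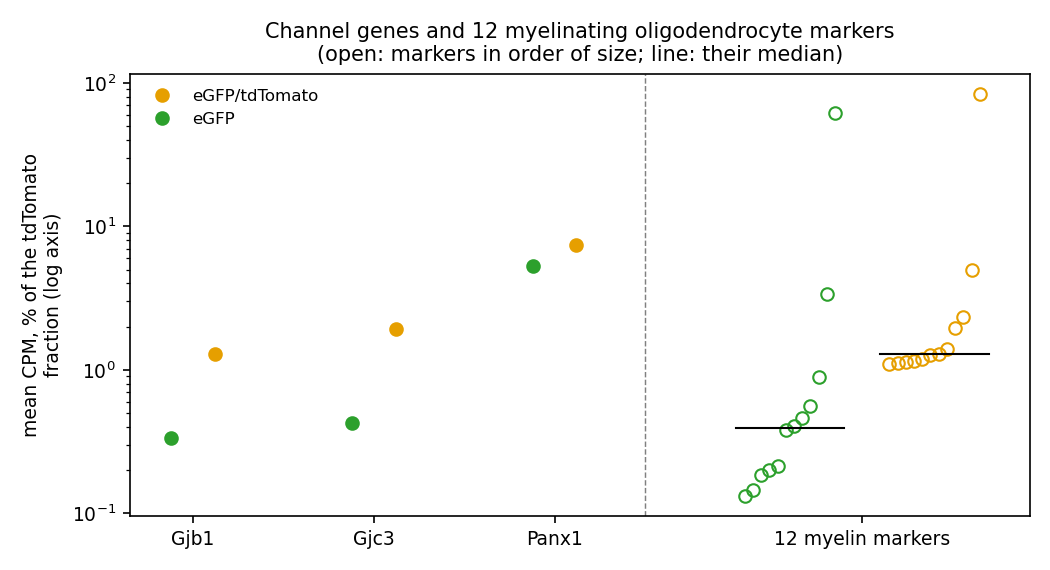
Mean level as a percentage of the mean tdTomato level, on a log axis, for Gjb1, Gjc3 and Panx1 (filled points) and 12 markers of myelinating oligodendrocytes (open points, lines are their medians), in the eGFP and eGFP/tdTomato fractions. Gjb1 lies near the medians of the myelin markers (1.28% in eGFP/tdTomato, 0.392% in eGFP) and Gjc3 above them, while Panx1 lies higher still, at 7.37 and 5.30%.

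Gjd2, the neuronal connexin, was close to absent. Gjd2 (ENSMUSG00000068615, chromosome 2, 114009601 to 114013619, minus strand) had 33, 5, 3 and 0 counts in the eGFP libraries, 10, 9, 0 and 6 in eGFP/tdTomato and 0, 6, 12 and 9 in tdTomato. Most of its eGFP counts came from replicate 1, where reads outside genes were most frequent. A count of 0 allows up to 0.113 CPM in eGFP replicate 5 and eGFP/tdTomato replicate 3, and 0.133 CPM in tdTomato replicate 1. It did not pass the filter on low counts and so had no test among the 29361 genes tested. The 10 neuron markers summed to 70.1, 48.7 and 83.5 CPM in eGFP, eGFP/tdTomato and tdTomato.

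Counted over the list, 6 of the 7 genes passed the filter. Between eGFP/tdTomato and eGFP, 3 were called higher (Gjb6, Gjb1 and Gjc3), 0 lower and 3 were not called, where 0.814% of all genes tested were called higher, 1.67% lower and 2.49% in either direction. No member was lower there at an unadjusted p under 0.05 or with DESeq2 or limma-voom, which called 3 and 2 members higher. Without eGFP replicate 1, and also without eGFP replicate 5 or eGFP/tdTomato replicate 3 or 5, the count of higher members was 1, which was Gjc3. Libraries did not overlap for 3 higher members (Gja1, Gjb6, Gjc3) and 1 lower (Gjc1), against 3.75% and 4.18% of all genes tested (7.94% in either direction). Against tdTomato, 4 members were higher and 2 lower in eGFP/tdTomato, where 16.8% of all genes were called higher and 12.4% lower (29.2% in either direction). In eGFP 4 were higher and 2 lower as well, where 20.4% of all genes were higher and 14.9% lower (35.2% in either direction). The libraries did not overlap for any of the 6 in both comparisons. That held for 20.6% (higher), 14.8% (lower) and 35.4% (either) of all genes with eGFP/tdTomato, and for 19.6%, 14.3% and 33.9% with eGFP. These calls held in all 25 alternatives, without eGFP replicate 1 as well. The comparisons share libraries: eGFP/tdTomato enters the first and the second, eGFP the first and the third, and tdTomato the second and the third. The median log2 fold change of the 6 genes was 1.06, 5.48 and 5.41 in the order given, against −0.02, 0.70 and 0.79 over all genes tested.

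Levels of different genes were compared as counts per kilobase of exon, as shares of the summed level of the 7 genes in each library. This pool was almost wholly Gja1 in the eGFP fraction (91.5 ± 1.42%, SD, n = 4), with Gjb6 at 6.08 ± 1.22%, Gjc1 at 1.10% and Gjb2 at 0.947%. In eGFP/tdTomato, Gja1 made up 86.6 ± 1.45% and Gjb6 11.1 ± 1.26%, with Gjb2 at 0.982%, Gjc1 at 0.487%, Gjc3 at 0.454% and Gjb1 at 0.340%. In tdTomato, the pool was split between Gjb1 (52.1 ± 4.02%) and Gjc3 (47.5 ± 4.04%), and Gja1 made up 0.263%. Gjb1 and Gjc3 did not differ beyond their spread per length, with Gjb1 the larger in 3 of 4 tdTomato libraries, although Gjc3 had more reads. Gjc1 and Gjb2 overlapped over the eGFP libraries, and Gjc1, Gjc3 and Gjb1 over the eGFP/tdTomato libraries. With the longest transcript as the length in place of all exons, Gja1 was at 95.8% in eGFP and 93.2% in eGFP/tdTomato and Gjb6 at 3.07% and 5.78%, since the exons of Gja1 span 10257 bases and its longest transcript 3889. Gja1 and then Gjb6 led in both fractions with either length. In TPM (levels per length, scaled to the same total in each library), Gjb1 was at 508, 429, 656 and 655 and Gjc3 at 528, 428, 603 and 473 in the tdTomato libraries.

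**Figure D3:**
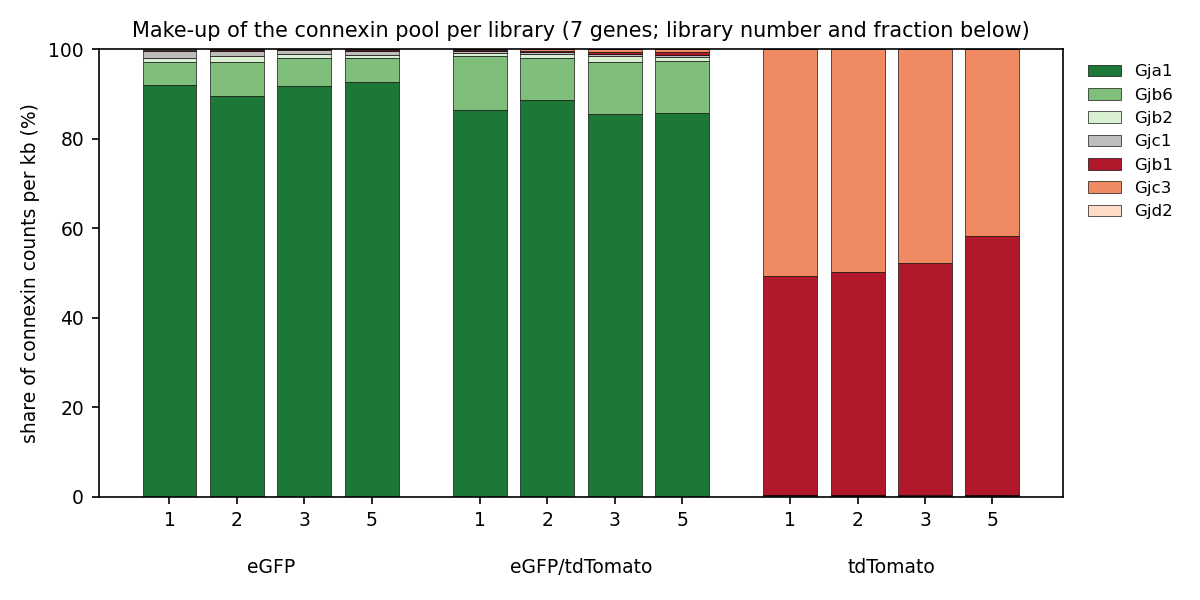
Share of each of the 7 connexins in their summed level, in percent of counts per kilobase of exon, with 1 stacked bar for each library, grouped by fraction. Gja1 and then Gjb6 take most of the pool in every library with GFP (means 91.5 and 6.08% in eGFP, 86.6 and 11.1% in eGFP/tdTomato), and Gjb1 (52.1%) and Gjc3 (47.5%) take it in the tdTomato libraries.

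Ratios within a library, which do not depend on how libraries are scaled, were compared between fractions in 6 tests. The Gjb6 to Gja1 ratio was 0.0554, 0.0866, 0.0681 and 0.0564 in the eGFP libraries and 0.139, 0.105, 0.136 and 0.136 in the eGFP/tdTomato libraries. The fractions did not overlap, and the difference was 1.96-fold (0.97 on the log2 scale, exact permutation test, two-sided p = 0.0286, adjusted p = 0.0571), with all 4 eGFP/tdTomato libraries above all 4 eGFP libraries. With 4 libraries against 4, 0.0286 is the smallest p this test can give, and none of the 6 ratios passed after adjustment. Without eGFP replicate 1 the difference was 0.89.

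The Gjb2 to Gjb6 ratio went the other way. It was 0.176, 0.171, 0.137 and 0.138 in eGFP and 0.0563, 0.107, 0.110 and 0.0843 in eGFP/tdTomato, a 1.79-fold lower ratio with no overlap (exact permutation p = 0.0286, adjusted 0.0571). The Gjb2 to Gja1 ratio overlapped between these fractions (difference 0.13 on the log2 scale, exact permutation p = 0.657, adjusted 0.771). Relative to Gja1, the values of Gjb6 were separated by fraction and those of its neighbour Gjb2 were not, and neither difference passed the adjusted threshold.

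The ratio between the oligodendrocyte connexins was measured in the same way. Gjb1 to Gjc3 was 0.962, 1.00, 1.09 and 1.39 in the tdTomato libraries and 0.538, 0.719, 0.672 and 0.909 in eGFP/tdTomato. The eGFP/tdTomato libraries were all lower, by 1.58-fold (exact permutation p = 0.0286, adjusted 0.0571). In eGFP the ratio was 1.25, 2.82, 0.413 and 0.442, a range that overlaps both others and rests on 10 to 41 counts of Gjb1 per library.

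**Figure D4:**
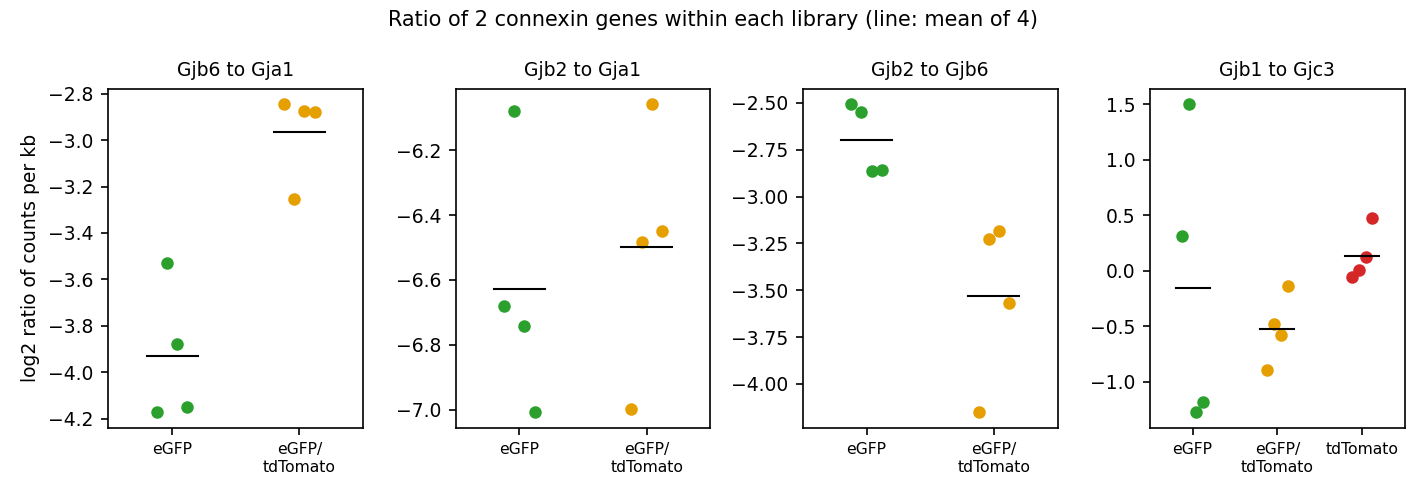
Ratios of connexin pairs within each library, as log2 of counts per kilobase, by fraction; points are libraries, lines are means of 4 and each panel has its own axis range. Gjb6 to Gja1 is higher and Gjb2 to Gjb6 lower in every eGFP/tdTomato library than in any eGFP library, and Gjb1 to Gjc3 is lower in every eGFP/tdTomato than in any tdTomato library.

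A few connexins beside the 7 were measured at low levels. Gja5, a connexin of arterial endothelium, was at 6.73, 7.52, 9.95 and 7.87 CPM in eGFP/tdTomato, at 5.84, 0.0921, 4.28 and 3.69 CPM in eGFP and at 0.400 ± 0.173 CPM in tdTomato. It was higher than in tdTomato in eGFP/tdTomato (4.29 ± 0.75, adjusted p = 0.000366) and in eGFP (3.08 ± 0.73, adjusted p = 0.00351), and was not called between the fractions with GFP (1.21 ± 0.65, adjusted p = 0.635). Without eGFP replicate 1 its difference between eGFP and tdTomato was 2.53 (adjusted p = 0.0134). With limma-voom it was not called (2.20, adjusted p = 0.199), and the call held in 23 of 25 alternatives. The endothelium markers summed to 142 CPM in eGFP, 67.0 in eGFP/tdTomato and 80.1 in tdTomato, of which Itm2a made up 119, 51.7 and 74.7 CPM. The sum of all 8 was lowest in eGFP/tdTomato, unlike Gja5. Without Itm2a, the other 7 summed to 22.6, 15.3 and 5.36 CPM, lowest in tdTomato. Between the fractions with GFP, their mean sum was lower in eGFP/tdTomato, whereas the mean of Gja5 was higher there (8.02 against 3.47 CPM). Their part in the level of Gja5 was not tested. Gja5 overlaps genes on the opposite strand, and the strand setting of the counting is not given, so reads of these genes may not be told apart. Gja3, Gja6 and Gja10 were at 0.759 to 2.60 CPM in the fractions with GFP and at 0.202 to 0.701 CPM in tdTomato. Of these, Gja6, which lies inside another gene, was called higher in eGFP than in tdTomato (1.88 ± 0.61, adjusted p = 0.0256), a call that was lost without eGFP replicate 1 (adjusted p = 0.109).

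Pannexins, which form channels of the cell surface and do not dock into junctions, were measured beside the connexins. Panx1, a channel that releases ATP, was at 137, 129, 165 and 87.8 CPM in the tdTomato libraries, 10.4, 9.15, 10.1 and 8.57 CPM in eGFP/tdTomato and 5.95, 8.80, 5.03 and 7.71 CPM in eGFP. The tdTomato libraries lay above all others, and those of eGFP and eGFP/tdTomato overlapped. Panx1 was 13.6-fold lower in eGFP/tdTomato (−3.76 ± 0.24, adjusted p = 8.71e-09) and 18.9-fold lower in eGFP (−4.24 ± 0.24) than in tdTomato. Its difference between the fractions with GFP did not pass (0.48 ± 0.22, adjusted p = 0.481). Panx3 was at 1.13 CPM in eGFP, 0.903 in eGFP/tdTomato and 0.512 in tdTomato and Panx2 was below 1 CPM in each, and neither was called in any comparison.

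**Figure D5:**
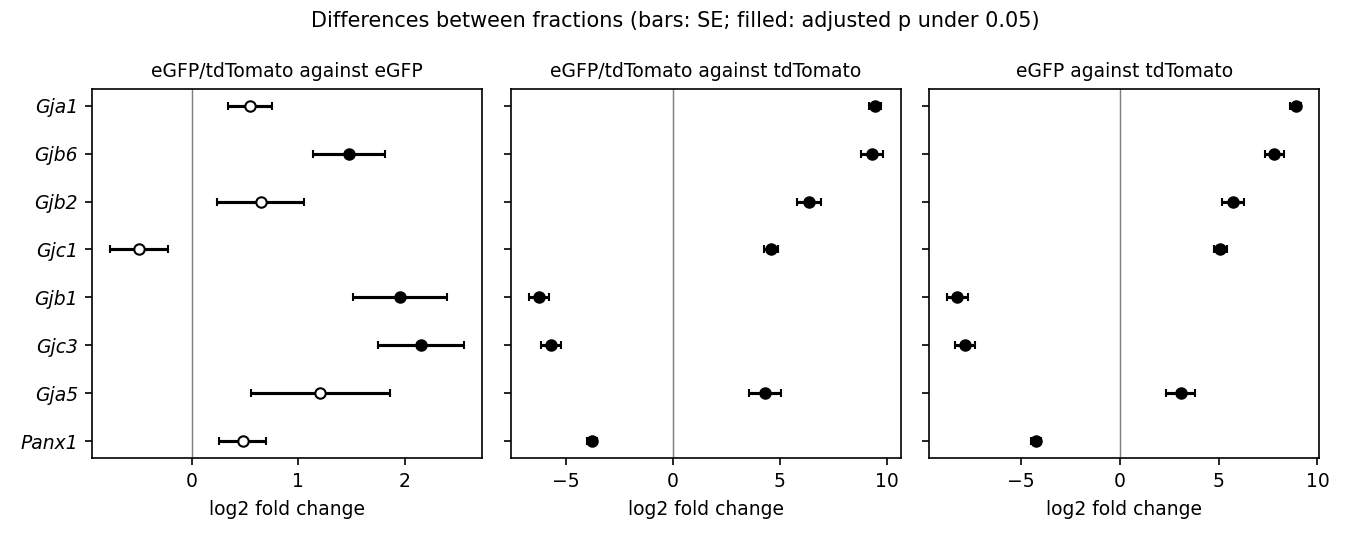
Log2 fold change (points; bars are the SE, filled points have an adjusted p under 0.05, edgeR) of 6 of the 7 connexins, Gja5 and Panx1 in the 3 comparisons between fractions, each panel with its own axis range. Against tdTomato, Gja1, Gjb6, Gjb2 and Gjc1 lie at 4.59 to 9.44 and Gjb1 and Gjc3 at −8.22 to −5.69, while the differences between the fractions with GFP lie from −0.50 (Gjc1) to 2.15 (Gjc3).

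A list of 18 genes whose proteins bind, anchor or modify connexins, or stand beside them in junctions, was followed in the same fractions, and 17 passed the filter. Between eGFP/tdTomato and eGFP, edgeR called 0 of them in either direction. At an unadjusted p under 0.05, 3 were higher and 2 lower, DESeq2 called 0 higher and 2 lower, and limma-voom called 0 higher and 1 lower. Without eGFP replicate 1, Cav1 was called lower (−0.94, adjusted p = 0.0178). Against tdTomato, 7 were higher and 2 lower in eGFP/tdTomato, and 6 were higher and 3 lower in eGFP. Over all genes tested, 16.8% were higher and 12.4% lower in the first of these comparisons and 20.4% and 14.9% in the second, so the lower counts lie near the background. The median log2 fold change of the 17 was 0.16, 0.68 and 0.52 in the 3 comparisons, beside −0.02, 0.70 and 0.79 over all genes tested.

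Within the list, partners of the astrocyte junction were high in the same fractions as Gja1. Mlc1, a membrane protein of astrocyte endfeet, was at 1006, 1230, 2071 and 1718 CPM in eGFP/tdTomato, at 656, 1065, 2174 and 1334 CPM in eGFP and at 3.89 ± 1.27 CPM in tdTomato. Hepacam, the adhesion protein that carries Mlc1 to cell junctions and binds the Gja1 protein, was at 955, 972, 1017 and 1010 CPM in eGFP/tdTomato, at 444, 624, 1078 and 565 CPM in eGFP and at 66.9 ± 6.88 CPM in tdTomato. Libraries with GFP lay above all tdTomato libraries for both genes, and the fractions with GFP overlapped. Mlc1 was 389-fold and Hepacam 14.8-fold higher in eGFP/tdTomato than in tdTomato (8.60 ± 0.46 and 3.88 ± 0.26 on the log2 scale).

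Junction and signalling genes of the list differed as well. Cgnl1, a protein of cell junctions, was at 12.4 ± 0.927 CPM in eGFP/tdTomato against 1.10 ± 0.887 in tdTomato (11.1-fold), and Src, a kinase that phosphorylates the Gja1 protein, was 4.57-fold higher. Ocln, a tight junction protein, was at 10.1 ± 3.59 CPM in eGFP and 0.863 ± 0.706 in tdTomato (11.6-fold), and at 1.70 ± 1.18 in eGFP/tdTomato. Cav1, the scaffold of caveolae, was lower in both fractions with GFP, at 17.0 ± 3.71 CPM in eGFP/tdTomato and 28.6 ± 7.14 in eGFP against 70.5 ± 14.1 in tdTomato. Csnk1d, a kinase of gap junction assembly, was 1.45-fold and 1.63-fold lower than in tdTomato in eGFP/tdTomato and eGFP, calls that held in 14 and 23 of 25 alternatives. Tjp1, the scaffold ZO protein that binds the tail of Gja1, was 1.47-fold lower in eGFP than in tdTomato (adjusted p = 0.0412), which held in 14 of 25 alternatives.

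Over the 12 libraries, each connexin was set beside the genes with the most similar log2 level, among 10563 genes with at least 10 CPM in a fraction. These correlations describe 12 libraries in 3 fractions and include the steps between fractions, and the libraries share their scaling. Gja1 was most like Aqp4 (Pearson r = 0.999), the water channel of astrocytes, Sparcl1 (0.999) and Slc4a4 (0.998), a bicarbonate transporter. Gjb6 was most like Il33 (0.994), Foxb1 (0.994) and Acsbg1 (0.992), and Gjb2 most like Folh1 (0.993), Gjb6 (0.991) and Eva1a (0.990). Gjc3 was most like the myelin genes Mbp (0.998) and Mobp (0.996). Gjb1 was most like Plpp2 (0.996), Map6d1 (0.991) and Chn2 (0.991), which were also highest in tdTomato (92.3, 463 and 547 CPM). Gjc1 was most like Fas (0.998) and Pdlim4 (0.994). Among the members, Gjb6 and Gjb2 had r = 0.991, Gja1 and Gjb6 0.986, Gjb1 and Gjc3 0.980, and Gja1 and Gjb1 −0.947.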

How the data were processed

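RNA of 12 libraries (3 sorted fractions, 4 each) was analysed. The authors deposited raw HTSeq counts per Ensembl gene, aligned with STAR to GRCm38, per the submitters' processing notes; their versions, the annotation and the strand setting are not given in the sources used here. Lines that name no gene (reads outside genes were 21.2 to 57.1%) stayed out of library sizes. GENCODE M21 named 53360 of 53465 identifiers (99.8%). Promoter windows and protein numbers came from RefSeq.

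Counts were tested with edgeR 4.0.16 in R 4.3.3 (robust quasi-likelihood F-test, TMM factors, filterByExpr, all 12 libraries, fraction as the only factor), with Benjamini-Hochberg adjustment over 29361 genes and a threshold of 0.05. CPM are scaled by TMM factors. Ratios used counts per kilobase of exon with 0.5 counts added, and exact permutation tests in scipy 1.17.1. DESeq2 1.42.0, limma-voom (limma 3.58.1), other scalings and filters, a replicate block and left-out libraries were alternatives. The fit was tested on simulated counts.

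The 7 members and the gene lists were chosen with earlier results of these data known. Genes named in the text are all members, other connexins and pannexins called or with at least 1 CPM in a fraction, up to 4 called partners per direction with at least 5 CPM, and the 3 genes most like each member. Some genes picked by this rule are not reported here.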

Additional observations from a re-analysis of the deposited data

Results flagged for a closer look

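In 3 of 33 groups of 4 libraries examined, 1 library stood apart from the other 3, and chance gives about 1 in 20. Gja1 was at 2906 CPM in eGFP replicate 1, below 4450 to 4586 CPM in the other eGFP libraries, and the TMM factor of that library was 1.43. Gjd2 was at 1.83 CPM in the same library, above 0 to 0.230 CPM in the others. The log2 Gjb6 to Gja1 ratio of eGFP/tdTomato replicate 2 was −3.26, below the other 3 libraries of that fraction.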

How the results depend on the processing

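Fold changes of the members kept their direction in all 25 alternatives. With libraries left out singly or by replicate number, 1 to 3 members were higher in eGFP/tdTomato than in eGFP, and 0 lower, while counts against tdTomato stayed at 4 higher and 2 lower; the cause was not tested. Shares moved with the length used. By longest transcript Gja1 was at 95.8, 0.639 and 93.2% in eGFP, tdTomato and eGFP/tdTomato, Gjb6 at 3.07 and 5.78%, Gjb2 at 0.377 and 0.401% and Gjc1 at 0.642 and 0.291% in eGFP and eGFP/tdTomato, Gjb1 at 0.0540% in eGFP and Gjc3 at 0.202% in eGFP/tdTomato. In a pool of 20 connexins Gja1 was at 90.1% in eGFP and 0.149% in tdTomato, where Gjb1 was at 29.1% and Gjc3 at 26.7%, since more genes share the pool. With 1 library left out, log2 differences ran from 0.89 to 1.10 (Gjb6 to Gja1), −0.015 to 0.31 (Gjb2 to Gja1; −0.015 without eGFP/tdTomato replicate 3), −0.95 to −0.63 (Gjb2 to Gjb6), and, for Gjb1 to Gjc3, −0.73 to 0.19 between eGFP/tdTomato and eGFP (0.19 without eGFP replicate 2), −0.78 to −0.53 against tdTomato and −0.85 to 0.077 between eGFP and tdTomato (0.077 and 0.04 without eGFP replicate 3 or 5).

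Over all genes, the 239 higher and 491 lower in eGFP/tdTomato against eGFP became 549 and 949 with DESeq2, 566 higher with the replicate block, 479 higher with a covariate for reads outside genes, 849 lower with library size alone, and 60 to 475 higher and 201 to 656 lower with libraries left out. The 3628 lower against tdTomato were 5452 without eGFP replicate 1. With library size alone 70.01% of calls between eGFP and tdTomato were higher, against 57.7%, and the median of all genes moved from 0.79 to 1.14 there and from −0.02 to −0.26 between the fractions with GFP. Libraries with the same number correlated in their deviations from −0.226 to 0.596 (8 of 12 pairs over 0.1). Libraries with different numbers correlated from −0.658 to 0.566. These ranges overlap, but the pairs among libraries numbered 3 were at 0.490, 0.588 and 0.596. Whether the numbers pair the libraries was therefore not settled. The sample descriptions give the 3 fractions the same set numbers without saying what a set shares. The main fit and the ratio tests took the libraries as unpaired. The replicate block left the member counts at 3 higher, and 4 higher and 2 lower against tdTomato, with Gjb6 at 1.48 (adjusted p = 0.0165), Gjb1 at 1.89 (0.0145) and Gjc3 at 2.20 (0.000459). Depth limits Gjd2, and Gjb1 in eGFP.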
